A study of Mus musculus with 17 samples.

Results

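The 9 genes described here encode the core proteins that write, remove and read N6-methyladenosine (m6A) on RNA. They are the writers *Mettl3*, *Mettl14* and *Wtap*, the erasers *Alkbh5* and *Fto*, and the YTH-domain readers *Ythdc1*, *Ythdf1*, *Ythdf2* and *Ythdf3*. They were taken by name, whatever their values, from a table of 23282 gene symbols, and all 9 were listed in it and passed the filter on low values in every comparison. The libraries came from spermatogenic cells of wild-type mice and of mice that lack *Nat10*, the gene of the RNA acetyltransferase that makes N4-acetylcytidine (ac4C), in germ cells. The mutant, labelled Stra8-cre_Nat10_KO and called SKO, carries a floxed and a null *Nat10* allele (fl/-). A Cre knocked in at *Stra8* removes exons 4 and 5 of the floxed allele in germ cells, so somatic cells keep the floxed copy only. The labels give the strain as C57BL/6 and the study's methods the background as C57BL/6J, and the labels give no age. Cells were sorted by DNA dye into spermatogonia (SPG), preleptotene spermatocytes (PreL) and leptotene and zygotene spermatocytes (LZ). Each stage had 3 WT and 3 SKO libraries, except that WT LZ had 2, which makes 17. The labels do not say whether the libraries of a group came from separate animals, so the tests measure the spread between libraries.

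As background, m6A is the most common internal mark of messenger RNA. METTL3 carries the catalytic site, METTL14 forms a pair with it and holds the RNA, and WTAP keeps the pair in nuclear speckles. ALKBH5 and FTO take methyl groups off again. YTHDC1 binds m6A in the nucleus, where it acts in splicing, export and choice of the poly(A) site, while the YTHDF proteins bind it in the cytoplasm and act on decay and translation. In the mouse testis, m6A writers, ALKBH5, YTHDC1 and YTHDF2 have known roles in germ cells. NAT10 makes another mark on RNA, and the Cre acts on none of these 9 genes.

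Promoter sequences from RefSeq on GRCm38.p6 were at hand for 7 of the 9 genes, all but *Mettl14* and *Ythdf3*. The promoters of *Ythdf1* and *Ythdc1* are shown because both genes passed as higher in SKO LZ, and that of *Ythdf2* because its share of the YTHDF reads moved the other way. Each run below is the 250 bases before the RefSeq start, on the strand of the gene, and capitals mark the letters TGACGT or their reverse complement ACGTCA, the core of the element bound by CREB and CREM. The runs lie at chr2:180920937-180921186 on the minus strand, at chr5:86804016-86804265 on the plus strand and at chr4:132212257-132212506 on the minus strand, in this order.
*Ythdf1*: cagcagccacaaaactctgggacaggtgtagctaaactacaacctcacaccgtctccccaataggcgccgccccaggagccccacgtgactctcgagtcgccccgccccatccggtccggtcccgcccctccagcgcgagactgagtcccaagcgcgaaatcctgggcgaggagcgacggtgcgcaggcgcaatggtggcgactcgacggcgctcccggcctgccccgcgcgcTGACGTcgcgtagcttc
*Ythdc1*: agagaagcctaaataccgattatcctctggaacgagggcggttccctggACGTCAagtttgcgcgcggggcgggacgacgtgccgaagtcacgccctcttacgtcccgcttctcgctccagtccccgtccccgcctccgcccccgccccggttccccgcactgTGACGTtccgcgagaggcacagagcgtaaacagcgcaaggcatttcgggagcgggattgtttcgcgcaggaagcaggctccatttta
*Ythdf2*: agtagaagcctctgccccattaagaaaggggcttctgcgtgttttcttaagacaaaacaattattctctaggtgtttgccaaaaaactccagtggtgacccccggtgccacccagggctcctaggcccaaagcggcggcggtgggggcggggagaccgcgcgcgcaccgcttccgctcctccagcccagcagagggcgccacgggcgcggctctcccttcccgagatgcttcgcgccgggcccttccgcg
The *Ythdf1* promoter holds TGACGT once, 17 bases before the start. The *Ythdc1* promoter holds TGACGT 87 bases and ACGTCA 201 bases before the start. None of the other 5 member promoters at hand holds these letters in its 300-base window, from 250 bases before to 50 after the start. Of 32851 promoters of that length, 7.51% hold them on either strand, so these matches are a description of the letters and not of a factor. Other motifs were searched as well, and the marked letters are only a part of what was looked at. GGGCGG, for example, was in the promoters of *Ythdf1*, *Ythdc1*, *Ythdf2*, *Alkbh5* and *Wtap*, and in 35.7% of all promoters. It was absent from those of *Fto* and *Mettl3*. With the first entry of each gene taken, all 7 promoters are rich in CpG. They hold 17 to 37 CpG dinucleotides against a median of 7 over all promoters. Their GC content is 52% to 70% against a median of 52.7%. Another entry of *Wtap* holds 48 CpG dinucleotides at a GC content of 80.3%.

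The authors multiplied the read counts of each library by 1 factor taken from the ERCC spike-in, RNA of known amount added to each lysate, and from the cell input. Every deposited value was a whole multiple of the value of 1 read, so the reads could be recovered, and they numbered 9885136 to 13820953 per library outside SKO LZ and 5812380 to 7609420 in SKO LZ. For tests, a size factor per library (median of ratios) first took differences in total RNA out of the values, and log2(rescaled value + 10) was fitted with limma, a linear model that shares the estimate of spread across genes. A gene passed at a Benjamini-Hochberg adjusted p under 0.05 over all genes tested, and was called past 2-fold where the absolute log2 fold change was also above 1. *Nat10* itself lay lower in every SKO library than in every WT library of its stage, at 14.7 to 22.6 RPM (reads scaled to a common library total) in SKO SPG against 30.2 to 37.2 in WT SPG, at 10.1 to 15.0 against 23.1 to 36.4 in PreL, and at 6.83 to 8.81 against 28.1 to 28.6 in LZ. The sorts also differed in marker genes. All 10 of 10 spermatid markers and all 9 of 9 late spermatocyte markers lay below every WT library in SKO LZ, with summed levels of 7.07 to 9.63 against 663 to 1093 and of 112 to 125 against 3701 to 6513 RPM. The spermatid markers *Acrv1* and *Odf1* had no read in SKO LZ. Of 12 early meiotic markers, 9 lay below both WT LZ libraries, with sums of 3502 to 5313 against 5575 to 6631 RPM. Earlier, 8 of 12 lay above every WT library in SKO SPG and 6 of 12 in SKO PreL. Their sums were 5104 to 5312 against 3519 to 3752 RPM in SPG. In PreL they were 6592 to 9505 against 5044 to 5622. Of 8 immediate early genes, 5 lay above both WT LZ libraries, with sums of 198 to 278 against 41.3 to 122. In SPG 8 of 8 lay above every WT library, with sums of 229.5 to 474.1 against 28.05 to 35.96. In PreL 6 of 8 did, at 79.67 to 294.2 against 42.48 to 57.72. Spermatid sums were 4.35 to 8.982 against 121.4 to 337.5 RPM in SPG. In PreL they were 9.059 to 14.29 against 603.9 to 1013. Leydig cell markers lay above every WT library in SKO in 7 of 7 genes in SPG, 6 of 7 in PreL and 4 of 7 in LZ, with sums of 62.5 to 225 against 5.61 to 15.5, of 40.4 to 459 against 6.25 to 17.7, and of 79.1 to 230 against 20.9 to 57.3 RPM. Of all genes tested, 29.6% in SPG, 37.4% in PreL and 70.1% in LZ had groups without overlap in either direction, on the rescaled values. The LZ counts of Leydig, immediate early and early meiotic markers were near that share. The part of these markers in the results below was not tested. In sorted bulk samples, fewer cells of a type and less RNA per cell cannot be told apart.

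The genes differed widely in level. Per length, in RPM divided by the kilobases of the longest annotated transcript (RPKM), *Alkbh5* and *Wtap* were the most abundant in WT SPG, at 91.2, 169 and 126 RPKM for *Alkbh5* and at 82.6, 157 and 126 RPKM for *Wtap*. Their ranges overlapped, so their order is not resolved. *Ythdf1* followed at 44.6 to 50.7 RPKM and *Ythdf2* at 34.9 to 51.0 RPKM, again with overlapping ranges. *Ythdc1* lay at 22.0 to 22.4 RPKM, *Ythdf3* at 15.3 to 18.0 RPKM, *Mettl3* at 11.1 to 16.5 RPKM, *Mettl14* at 9.11 to 11.2 RPKM and *Fto* at 4.91 to 7.62 RPKM. Among these, the ranges of *Ythdf3* and *Mettl3* and those of *Mettl3* and *Mettl14* overlapped, while *Ythdc1* and *Fto* stood apart from their neighbours. The order depends on the length used. Per kilobase of all annotated exons together, *Ythdc1* lay at 10.2 to 10.4 in WT SPG, below *Ythdf3* at 14.5 to 17.2 and within *Mettl14* at 8.84 to 10.8. On that scale *Mettl3*, at 4.71 to 7.01, lay below *Mettl14*, and *Wtap*, at 42.1 to 80.3, overlapped *Ythdf1*, at 42.8 to 48.7. The 2 erasers thus lay at opposite ends of the order, and the catalytic writer *Mettl3* was among the least abundant members. Per longest transcript, the mean of *Wtap* stood above that of *Alkbh5* in SKO SPG, SKO PreL and WT LZ, with ranges that overlapped in all 3. In SKO LZ the order differed more. *Ythdf1*, at 44 to 49.7 RPKM, lay above *Alkbh5*, at 29.3 to 32.2 RPKM, and the range of *Mettl3*, at 2.47 to 5.72 RPKM, lay at the bottom with *Fto*, at 4.10 to 4.72 RPKM.

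**Figure D1:**
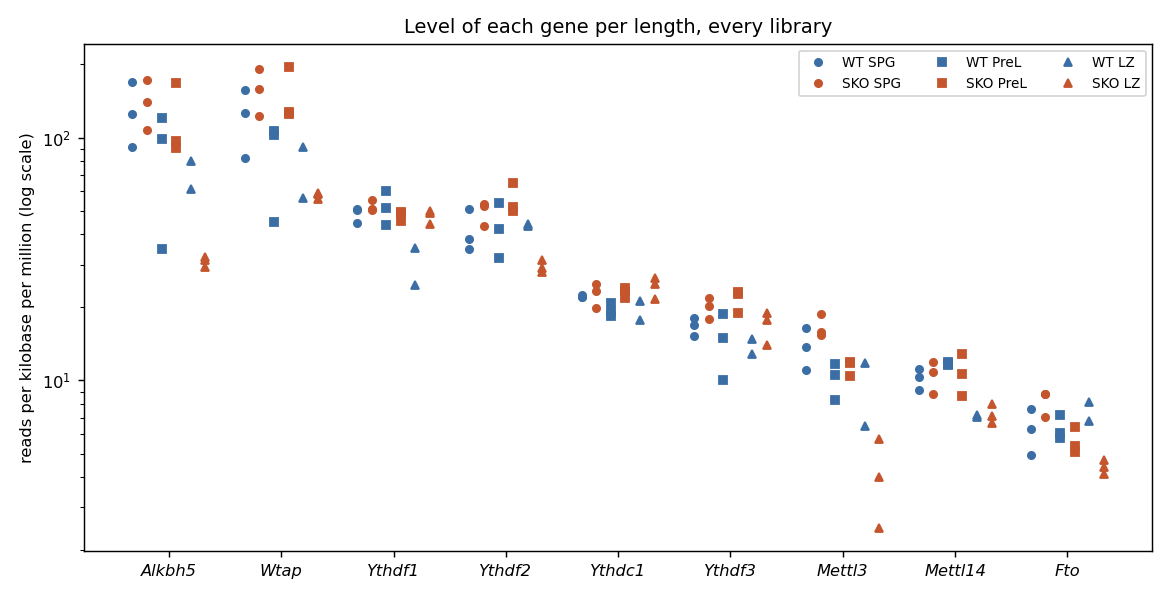
Level per kilobase of the longest annotated transcript (RPKM), on a log axis, for the 9 genes in each of the 17 libraries. Blue symbols are WT and orange symbols SKO, with circles for SPG, squares for PreL and triangles for LZ. *Alkbh5* and *Wtap* sit above the other genes in SPG, and the SKO LZ triangles of *Alkbh5* sit lowest in its column.

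Positions are from GENCODE on GRCm38. *Mettl3* is at chr14:52294841-52305128 and *Fto* at chr8:91313525-91668439. Their exons overlap those of genes on the other strand, *Tox4* for *Mettl3* and *4831440D22Rik* and *Gm45427* for *Fto*. The exons of *Ythdc1*, at chr5:86804221-86836659, overlap *Gm43055* on the same strand. The Smart-seq2 libraries do not keep strand, so reads of the overlapping stretches cannot be assigned. The exons of *Ythdf1*, at chr2:180904377-180920949, of *Alkbh5*, at chr11:60536381-60558512, and of *Wtap*, at chr17:12966796-12994169, overlap no other annotated gene. The same holds for *Ythdf2*, at chr4:132184912-132212303, and for *Mettl14* and *Ythdf3*, at chr3:123368297-123386108 and chr3:16183212-16217037.

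In WT cells, no member passed between SPG and PreL. From PreL to LZ, *Ythdf1* and *Mettl14* fell on the rescaled values and were higher on the ERCC scale. The 2 WT sorts also differed in markers. Late spermatocyte sums were 338 to 1162 RPM in WT PreL and 3701 to 6513 in WT LZ. Sertoli cell sums were 57.5 to 65.2 and 230 to 1171. The part of these markers in the WT course was not tested. In the fit of all 17 libraries, *Ythdf1*, a cytoplasmic reader linked to translation, had rescaled values of 3264, 3204 and 3489 in WT SPG, of 3506, 3161 and 4522 in WT PreL, and of 2173 and 2006 in WT LZ. Both WT LZ libraries lay below all other WT libraries. Its log2 fold change from PreL to LZ was -0.82 ± 0.14 (SE, adjusted p = 0.000173). *Mettl14* had values of 1778, 1915 and 2009 in WT PreL and of 1008 and 1292 in WT LZ, a log2 fold change of -0.73 ± 0.21 (adjusted p = 0.00765). The latter did not pass without replicate 2 of WT LZ (-0.55, adjusted p = 0.0968). On the ERCC scale both directions reversed, to 0.87 for *Ythdf1* and 0.95 for *Mettl14*, as the median of all genes tested moved from 0.22 to 1.80. All 9 members passed as higher in WT LZ on that scale, where 86.4% of all genes did. On the rescaled values 2 of 9 members passed as lower and 0 as higher, against 17.0% of all genes lower and 27.2% higher. The other 7 members had adjusted p of 0.477 to 0.941, with log2 fold changes of -0.22 for *Mettl3*, -0.14 for *Wtap*, -0.10 for *Alkbh5*, -0.05 for *Ythdf3*, -0.02 for *Ythdc1*, 0.04 for *Ythdf2* and 0.21 for *Fto*. Between WT SPG and WT PreL, 0 of 9 members passed with limma, edgeR or DESeq2, while 4.32% of all genes passed as lower and 6.30% as higher in PreL, and 0 members had an unadjusted p under 0.05 in limma. The lowest log2 fold change was that of *Alkbh5*, -0.68 ± 0.37 (adjusted p = 0.246), and the highest that of *Mettl14*, 0.27 ± 0.18 (adjusted p = 0.373). The others were *Wtap* at -0.52, *Mettl3* at -0.36, *Ythdf3* at -0.18, *Ythdc1* at -0.12, *Fto* and *Ythdf2* at 0.10 and *Ythdf1* at 0.15.

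**Figure D2:**
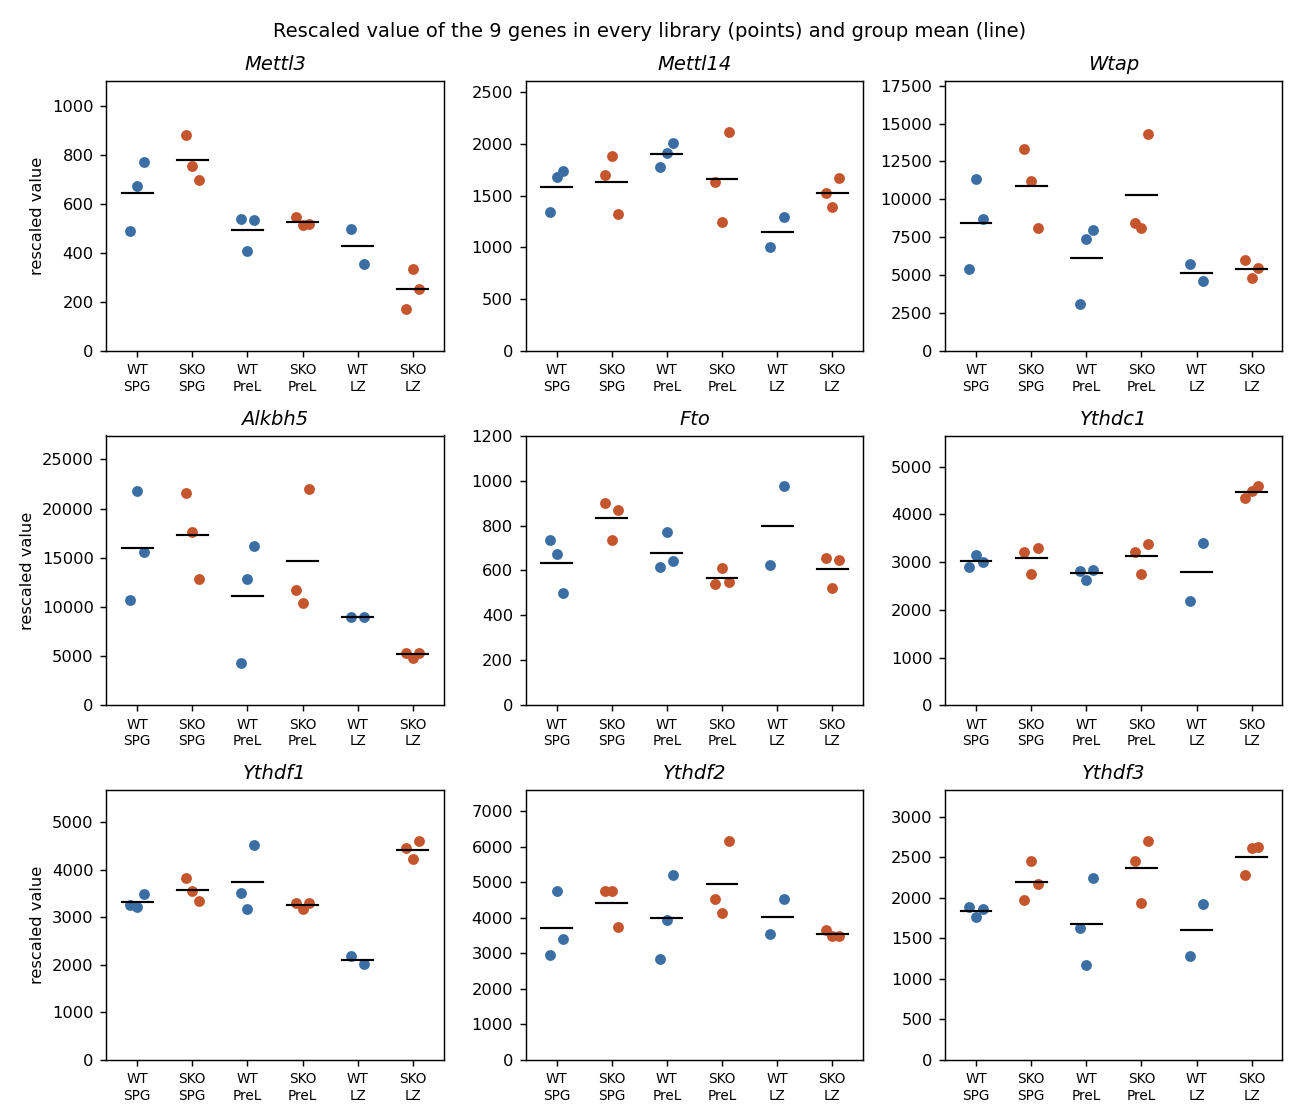
Rescaled value (deposited value divided by the size factor of the fit of all 17 libraries) of each of the 9 genes. Points are libraries, blue for WT and orange for SKO, lines are group means, and each axis starts at 0. In LZ the 3 SKO points of *Ythdf1* sit above both WT points and those of *Alkbh5* below them.

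The comparison of SKO with WT within each stage asks whether the m6A genes were disturbed where *Nat10* was removed. In SPG, 0 of 9 members passed with limma and 0 with edgeR or DESeq2 on the recovered reads, against 4.85% of all genes lower and 6.22% higher in SKO. All 9 log2 fold changes were above 0, from 0.01 for *Ythdc1* to 0.38 for *Wtap* and *Fto*, with a median of 0.24 beside a median of 0.00 over all genes, and 0 members had an unadjusted p under 0.05. On the ERCC scale, whose all-gene median was -0.25, 6 of these 9 values were below 0. *Ythdf3*, a cytoplasmic reader, was the 1 member of 9 whose groups did not overlap, as was the case for 29.6% of all genes. Its rescaled values in the fit of that stage were 1154, 1068 and 1138 in WT SPG and 1188, 1479 and 1312 in SKO SPG, and the log2 fold change was 0.24 ± 0.15 (adjusted p = 0.336). *Ythdc1*, the nuclear reader, had values of 1778, 1906 and 1833 in WT SPG and of 1926, 1660 and 1999 in SKO SPG, so its groups overlapped fully. The log2 fold change of *Ythdc1* was 0.01 ± 0.13 (adjusted p = 0.964). The others were *Mettl14* at 0.02, *Ythdf1* at 0.09, *Alkbh5* at 0.13, *Ythdf2* at 0.26 and *Mettl3* at 0.27.

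In PreL, 0 of 9 members passed with limma and 0 with edgeR or DESeq2, against 10% of all genes lower and 7.89% higher in SKO, and 2 had an unadjusted p under 0.05. These were *Wtap*, the speckle-anchoring writer subunit, and *Ythdf3*. *Wtap* had values of 2710, 6546 and 7060 in WT PreL and of 7532, 7243 and 12678 in SKO PreL. The groups did not overlap, which held for 1 of 9 members and 37.4% of all genes, but replicate 1 of WT PreL lay far below the other WT libraries and replicate 3 of SKO PreL far above the other SKO libraries. The log2 fold change of *Wtap* was 0.82 ± 0.35 (adjusted p = 0.134), and 0.37 without replicate 1 of WT PreL (adjusted p = 0.317). *Alkbh5* moved with *Wtap* from library to library, at 3757, 11402 and 14401 in WT PreL and 10472, 9295 and 19512 in SKO PreL. Its log2 fold change was 0.54 ± 0.46 (adjusted p = 0.442), and -0.06 without replicate 1 of WT PreL. Over the 17 libraries the Pearson correlation of the 2 genes was 0.89, the highest of the 36 pairs of members, given as a description since the points share libraries and groups. *Ythdf3* had values of 1436, 1034 and 1994 in WT PreL and of 2190, 1727 and 2394 in SKO PreL, and a log2 fold change of 0.53 ± 0.23 (adjusted p = 0.137). It passed without replicate 4 of WT PreL (0.76, adjusted p = 0.0443). Apart from *Wtap*, *Alkbh5* and *Ythdf3*, the members had log2 fold changes from -0.24 for *Fto* to 0.34 for *Ythdf2*, with *Mettl14* at -0.21, *Ythdf1* at -0.17, *Mettl3* at 0.10 and *Ythdc1* at 0.18. On the ERCC scale, 8 of 9 members passed as higher in SKO PreL, all but *Fto*, at a background of 49.7% of all genes and with the all-gene median at 0.73. The 3 members below 0 on the rescaled values, *Mettl14*, *Fto* and *Ythdf1*, then stood at 0.51, 0.47 and 0.55.

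**Figure D3:**
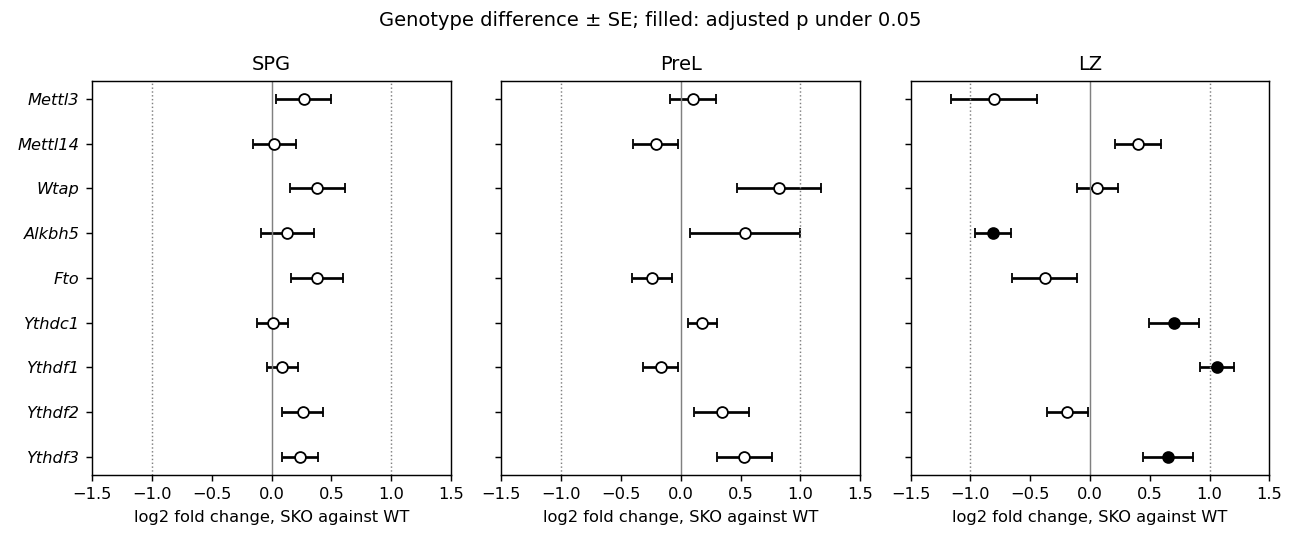
Log2 fold change of SKO against WT for the 9 genes in SPG, PreL and LZ, with bars of 1 standard error from the limma fit of each stage. Filled points passed at an adjusted p under 0.05, and dotted lines mark 2-fold. The 4 filled points are *Alkbh5*, *Ythdc1*, *Ythdf1* and *Ythdf3* in LZ.

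In LZ, 3 readers rose and 1 eraser fell in SKO. *Ythdf1*, *Ythdc1* and *Ythdf3* passed as higher, and *Alkbh5* as lower, so that 3 of 9 members were higher, against 19.8% of all genes, and 1 of 9 was lower, against 31.1%. *Ythdf1* was the 1 member of 9 called past 2-fold, a call made for 39.1% of all genes. The median log2 fold change of the members was 0.06, beside -0.13 over all genes. The late spermatocyte and spermatid markers given earlier moved with these libraries, and their part was not tested.

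*Ythdf1* had rescaled values of 4533 and 4293 in WT LZ and of 9373, 8714 and 9653 in SKO LZ. Every SKO library lay above both WT libraries, and the spread within each group was small beside the gap. The log2 fold change was 1.06 ± 0.14 (adjusted p = 0.000778), a 2.09-fold difference. It passed under each of the 16 alternatives, with values from 0.69 on library totals to 1.12 with edgeR. In the fit of all libraries, the SKO LZ values of 4448, 4216 and 4600 lay within or just above the range of WT PreL given earlier, whereas both WT LZ libraries lay below it. The fall from WT PreL to WT LZ and this difference rest on the same WT LZ libraries. So do the YTHDF shares in LZ and the interaction term below, so these are not independent results.

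*Ythdc1* had values of 4554 and 7302 in WT LZ and of 9154, 9294 and 9635 in SKO LZ. The SKO libraries lay close together and above both WT libraries, which differed from each other. The log2 fold change was 0.70 ± 0.21 (adjusted p = 0.0280). It was 0.33 without replicate 2 and 1.02 without replicate 3 of WT LZ, both of which passed, and it did not pass without replicate 1, 2 or 3 of SKO LZ (0.69 to 0.73, adjusted p = 0.0687 to 0.0830). *Ythdf3* had values of 2670 and 4114 in WT LZ and of 4790, 5396 and 5517 in SKO LZ, with no overlap and with the same wide gap between the WT libraries. Replicates 2 and 3 of WT LZ also differed in markers, with Sertoli cell sums of 1171 and 230 RPM against 380 to 535 in SKO LZ, and undifferentiated spermatogonia sums of 180 and 80.9 RPM against 92.8 to 118. Their part in these calls was not tested. The log2 fold change of *Ythdf3* was 0.65 ± 0.21 (adjusted p = 0.0348), and only 0.32 without replicate 2 of WT LZ. *Ythdf3* did not pass without replicate 1, 2 or 3 of SKO LZ (0.63 to 0.73, adjusted p = 0.0637 to 0.108), or on the ERCC scale (0.53, adjusted p = 0.0610). Neither *Ythdc1* (0.32) nor *Ythdf3* (0.28) passed on library totals. *Ythdf2*, the reader that recruits the deadenylase to marked RNA, had values of 7383 and 9671 in WT LZ and of 7692, 7209 and 7339 in SKO LZ. The groups overlapped, and the log2 fold change was -0.19 ± 0.17 (adjusted p = 0.378). It passed as lower without replicate 2 of WT LZ (-0.41, adjusted p = 0.0203) and on library totals (-0.57, adjusted p = 0.0135).

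The mix of YTHDF transcripts does not depend on how a library is scaled. *Ythdf1* made up 31.1% and 23.8% of the reads of *Ythdf1*, *Ythdf2* and *Ythdf3* in WT LZ, and 42.9%, 40.9% and 42.9% in SKO LZ. *Ythdf2* made up 50.6% and 53.5% in WT LZ, and 35.2%, 33.8% and 32.6% in SKO LZ. *Ythdf3* made up 18.3% and 22.8%, and 21.9%, 25.3% and 24.5%. The shares of *Ythdf1* and *Ythdf2* did not overlap between the genotypes in LZ, while those of *Ythdf3* did. In PreL the share of *Ythdf1* lay the other way, at 44%, 38.2% and 37.7% in WT and at 32.1%, 34.2% and 27.2% in SKO, again without overlap. The *Ythdf2* shares overlapped there, at 35.5%, 47.7% and 43.5% in WT and 44%, 44.8% and 50.7% in SKO, and those of *Ythdf3* were higher in SKO without overlap, at 20.4%, 14.1% and 18.7% against 23.9%, 21.0% and 22.2%. In SPG the *Ythdf1* shares overlapped, at 40.3%, 33.0% and 39.9% in WT and at 36.2%, 33.1% and 36.1% in SKO. No test was run on these shares. The shares compare reads and not transcript numbers, since the annotated lengths of the 3 genes differ.

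**Figure D4:**
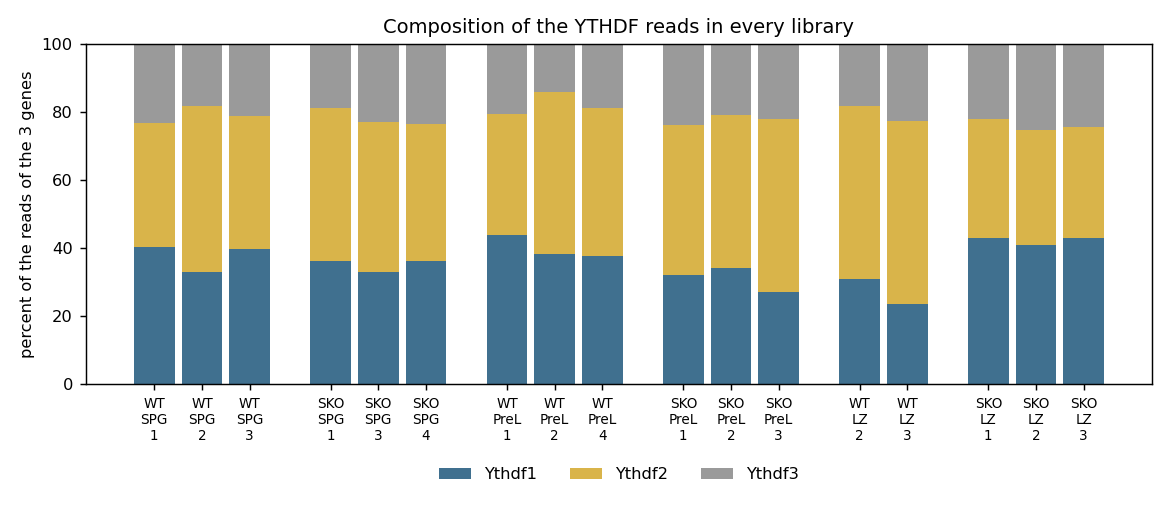
Share of the reads of *Ythdf1* (blue), *Ythdf2* (yellow) and *Ythdf3* (grey) in each of the 17 libraries, in percent of their sum. The blue part is 40.9% to 42.9% in SKO LZ and 23.8% to 31.1% in WT LZ, while in PreL it is smaller in SKO than in WT.

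*Alkbh5*, the eraser of the nucleus that is needed for male fertility in the mouse, had values of 18701 and 19164 in WT LZ and of 11250, 9984 and 11254 in SKO LZ. Every SKO library lay below both WT libraries. The log2 fold change was -0.81 ± 0.15 (adjusted p = 0.00324), to 0.571 of the WT level. It passed under each alternative but 1, with values from -1.18 on library totals to -0.74 without replicate 2 of SKO LZ. The exception was the fit of all 17 libraries (-0.79, adjusted p = 0.119), in which the spread of the SPG and PreL libraries enters. *Fto*, the other eraser, had values of 1298 and 2091 in WT LZ and of 1382, 1079 and 1355 in SKO LZ, which overlapped. Its log2 fold change was -0.38 ± 0.27 (adjusted p = 0.267), and it passed as lower on library totals (-0.75, adjusted p = 0.0218). There were 14.4 and 9.17 reads of *Alkbh5* for each read of *Fto* in WT LZ, and 8.14, 9.25 and 8.31 in SKO LZ. The other 14 libraries, WT LZ included, spanned 6.95 to 40.1.

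The writers did not pass in LZ. *Mettl3* had values of 1039 and 759 in WT LZ and of 357, 690 and 528 in SKO LZ. These rested on 353 and 191 reads and on 31, 94 and 60 reads, the fewest of any member. The groups did not overlap, and the log2 fold change was -0.80 ± 0.36 (adjusted p = 0.0978). It passed as lower in the fit of all 17 libraries (-0.77, adjusted p = 0.0266) and on library totals (-1.17, adjusted p = 0.0471). *Mettl14* had values of 2102 and 2767 in WT LZ and of 3213, 2878 and 3502 in SKO LZ, also without overlap, with a log2 fold change of 0.40 ± 0.19 (adjusted p = 0.119). The 2 genes of the METTL3-METTL14 pair thus stood on opposite sides of 0. There were 2.02 and 3.64 reads of *Mettl14* for each read of *Mettl3* in WT LZ, and 9.0, 4.17 and 6.63 in SKO LZ. The SKO LZ ratios of 9.0 and 6.63 lay above the 1.91 to 4.70 of the other 14 libraries, and that of 4.17 lay within them. *Wtap* had values of 11904 and 9795 in WT LZ and of 12597, 9926 and 11430 in SKO LZ, which overlapped, and a log2 fold change of 0.06 ± 0.17 (adjusted p = 0.791). Over the stages *Mettl3* lay at 489, 672 and 769 in WT SPG, 539, 408 and 535 in WT PreL and 498 and 355 in WT LZ in the fit of all libraries. The SKO libraries lay at 882, 756 and 695 in SPG, 544, 513 and 518 in PreL and 169, 334 and 252 in LZ, so SKO LZ held the lowest values of the series. *Mettl14* lay at 1696, 1885 and 1326 in SKO SPG, 1629, 1249 and 2118 in SKO PreL and 1524, 1392 and 1669 in SKO LZ, ranges that overlap each other.

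In all, 6 of 9 members had groups without overlap in LZ, namely *Mettl3*, *Mettl14*, *Alkbh5*, *Ythdc1*, *Ythdf1* and *Ythdf3*, against 70.1% of all genes.

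The LZ counts depended on the scale. With library totals, chosen as an alternative after the data were seen, the all-gene median moved from -0.13 to -0.50. On that scale 4 members passed as lower, *Alkbh5*, *Mettl3*, *Fto* and *Ythdf2*, against 40.7% of all genes, and 1 as higher, *Ythdf1*, against 11.1%. *Alkbh5* and *Ythdf1* kept their direction and passed on the rescaled values, the ERCC scale and library totals.

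**Figure D5:**
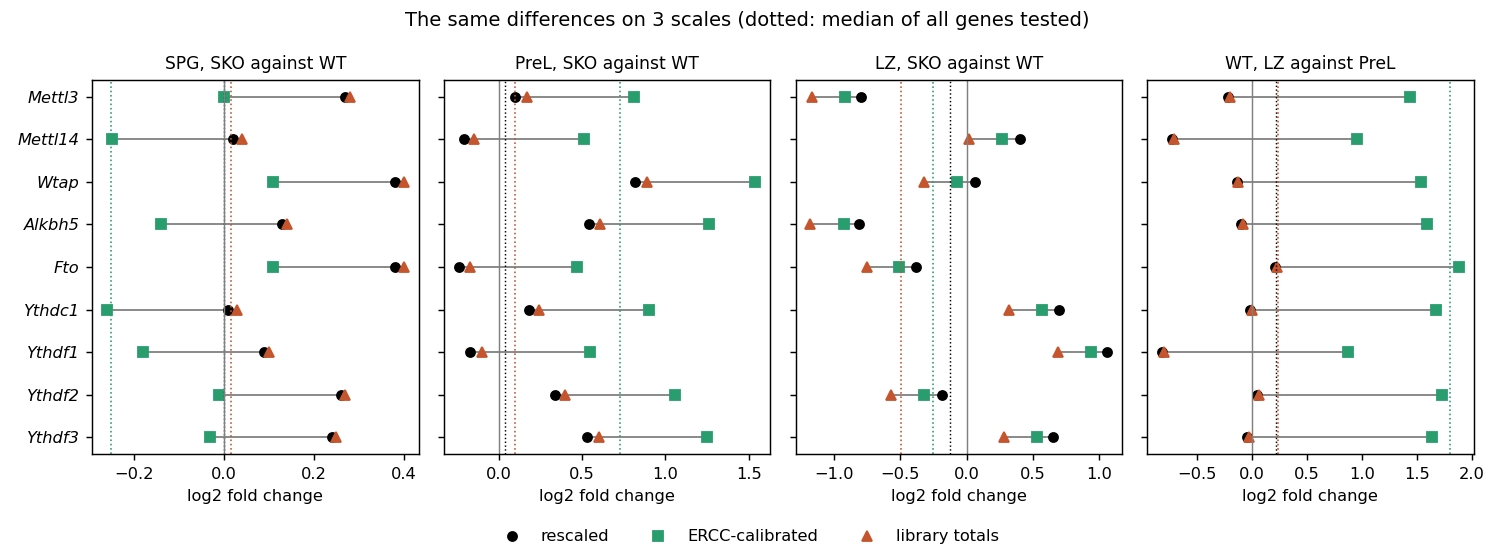
Log2 fold change of the 9 genes in 4 comparisons on 3 scales, namely the rescaled values (black circles), the ERCC-calibrated values (green squares) and library totals (orange triangles). Dotted lines of the same colours mark the median of all genes tested. The scales lie close together in LZ of SKO against WT for *Ythdf1*, at 0.69 to 1.06, and far apart for WT LZ against PreL, at -0.82 to 0.87.

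The interaction terms ask whether the genotype difference itself changed between stages, with all 17 libraries in 1 fit. From SPG to PreL, 0 of 9 members passed with limma, edgeR or DESeq2, and few genes did at all, 0.111% lower and 0.251% higher. The 1 member with an unadjusted p under 0.05 was *Fto* (-0.65 ± 0.29, adjusted p = 0.292). The terms of the other members were -0.28 for *Ythdf1*, -0.26 for *Mettl14*, -0.19 for *Mettl3*, 0.05 for *Ythdf2*, 0.14 for *Ythdc1*, 0.27 for *Ythdf3*, 0.39 for *Alkbh5* and 0.42 for *Wtap*. On the ERCC scale 7 members passed as higher, against 43.9% of all genes. From PreL to LZ, *Ythdf1* passed, with a difference of log2 fold changes of 1.26 ± 0.19 (adjusted p = 4.38e-05), as 1 of 9 members higher against 15.1% of all genes and 0 lower against 23.1%. It was also past 2-fold, as were 30.5% of all genes. The term stayed above 1 under every replicate left out (1.11 to 1.37) but was 0.39 on the ERCC scale (adjusted p = 0.201). The terms of *Ythdc1* (0.54 ± 0.21, adjusted p = 0.0523), *Alkbh5* (-1.32 ± 0.55, adjusted p = 0.0652), *Mettl3* (-0.87 ± 0.37, adjusted p = 0.0732) and *Mettl14* (0.64 ± 0.28, adjusted p = 0.0764) had unadjusted p under 0.05 and did not pass. Those of *Wtap* (-0.74), *Ythdf2* (-0.50), *Fto* (-0.11) and *Ythdf3* (0.14) had unadjusted p above it. On the ERCC scale, 6 members passed as lower, *Alkbh5*, *Fto*, *Mettl3*, *Wtap*, *Ythdf2* and *Ythdf3*, against 48.6% of all genes, and on library totals 4 did, against 34.9%.

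Other genes of the m6A system and of other RNA modifications were taken from fixed lists. Of all 56 listed genes, 26.8% were called past 2-fold in SKO LZ against WT LZ, beside 39.1% of all genes. From WT PreL to WT LZ the shares were 17.9% and 28.9%. In LZ, 31.1% of all genes passed as lower and 19.8% as higher in SKO. Of 5 further subunits of the methyltransferase complex, 1 passed in LZ. This was *Rbm15*, which guides the complex to RNA, at a log2 fold change of -1.09 ± 0.17 (adjusted p = 0.00165). *Zc3h13*, which holds the complex in the nucleus, was lower in WT LZ than in WT PreL on the rescaled values (-1.19 ± 0.16, adjusted p = 2.18e-05) and higher on the ERCC scale (0.49). Of 6 other methyltransferases and their partners, 3 passed as lower in LZ and 0 as higher. On library totals 5 passed as lower, against 40.7% of all genes. Past 2-fold were *Zcchc4*, an enzyme of ribosomal RNA, at -1.42 ± 0.46, and *Trmt112*, a partner that stabilises several methyltransferases, at -1.0 ± 0.17. The median of these 6 was -0.76, beside -0.13 over all genes. Of the 4 genes of the YTHDC2 group, which acts at meiotic entry, 1 passed in LZ, *Rbm46*, at -1.07 ± 0.22 (adjusted p = 0.00523).

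Of 9 further RNA-binding proteins linked to m6A, 2 passed as lower and 4 as higher in SKO LZ, against 31.1% and 19.8% of all genes. With the ERCC scale 3 passed as higher. On library totals 2 passed as higher and 3 as lower, against 11.1% and 40.7% of all genes. *Hnrnpa2b1*, a nuclear protein, was at 1.21 ± 0.23, and *Fmr1*, a regulator of translation, at 1.14 ± 0.29. *Igf2bp3*, which stabilises bound transcripts, was at -1.25 ± 0.26 and *Prrc2a* at -1.39 ± 0.27. The last 2 had risen from WT PreL to WT LZ, *Igf2bp3* by 1.82 ± 0.33 and *Prrc2a* by 1.65 ± 0.30, as had *Igf2bp2* by 2.11 ± 0.71. For every gene, the step from WT PreL to WT LZ and the comparison in LZ share the WT LZ libraries. The interaction term from PreL to LZ uses them too. Between WT SPG and WT PreL, a step in which 5.33% of all genes were called past 2-fold, *Igf2bp1* fell (-1.07 ± 0.22) and *Cnot11* rose (1.06 ± 0.20).

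The CCR4-NOT complex shortens poly(A) tails and is brought to marked RNA by YTHDF2. Of its 11 subunits, 5 passed as lower and 3 as higher in SKO LZ, against 31.1% and 19.8% of all genes, with a median of -0.17. On library totals 7 passed as lower and 1 as higher, against 40.7% and 11.1% of all genes. *Cnot3* was at 1.48 ± 0.33 and *Cnot9*, listed as *Rqcd1*, at -1.15 ± 0.17, and the deadenylase *Cnot7* passed at -0.93 ± 0.15 (adjusted p = 0.00173). In SPG and PreL 0 of the 11 passed. Of 5 nuclear partners of YTHDC1, *Cpsf6*, a factor of poly(A) site choice, passed as higher (0.70 ± 0.15, and 0.32 without passing on library totals) and the export receptor *Nxf1* as lower (-0.86 ± 0.15) in SKO LZ. *Cpsf6* also passed as higher in SKO SPG (0.52) and SKO PreL (0.54), though not in SPG on the ERCC scale (0.25). *Nxf1* had passed as higher in SKO PreL (0.89 ± 0.20, adjusted p = 0.0168). *Nxf1* had risen from WT PreL to WT LZ (1.17 ± 0.22).

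Of 16 enzymes and partners of other RNA modifications, 3 passed as lower and 3 as higher in SKO LZ, against 31.1% and 19.8% of all genes. On library totals 4 passed as lower and 2 as higher, against 40.7% and 11.1%. The largest was *Trub1*, a pseudouridine synthase, at 3.39 ± 0.24 (adjusted p = 5.62e-05), followed by *Dkc1*, the pseudouridine synthase of the H/ACA particles, at 1.83 ± 0.18. From WT PreL to WT LZ they stood at -1.01 and -1.06 on the rescaled values and at 0.67 and 0.62 on the ERCC scale. *Alkbh3*, a demethylase of N1-methyladenosine, was at -1.89 ± 0.29, *Mettl6* at -1.34 ± 0.24 and *Mettl1*, an N7-methylguanosine writer, at -1.12 ± 0.34. These 3 had risen from WT PreL to WT LZ by 1.10, 1.01 and 1.53, a step in which 28.9% of all genes were called past 2-fold. In PreL, *Nsun3* (1.62 ± 0.42, adjusted p = 0.0284) and *Mettl1* (1.15 ± 0.31, adjusted p = 0.0312) were called past 2-fold as higher in SKO, against 11.2% of all genes. In SPG 6.03% of all genes were called past 2-fold, and none of the 56 listed genes was. In the interaction term from SPG to PreL, 0.333% of all genes were called past 2-fold, and none of the listed genes passed at an adjusted p under 0.05.

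In the interaction term from PreL to LZ, 19 of the 56 listed genes were called past 2-fold, 33.9% against 30.5% of all genes. Those above 0 were *Trub1* (3.67 ± 0.29), *Dkc1* (1.89 ± 0.19), *Hnrnpa2b1* (1.76 ± 0.26), *Cnot3* (1.54 ± 0.58), *Cnot11* (1.27 ± 0.30) and *Srsf3* (1.07 ± 0.19). On the ERCC scale *Cnot3* (0.73, adjusted p = 0.308), *Cnot11* (0.41, adjusted p = 0.375) and *Srsf3* (0.20, adjusted p = 0.536) did not pass. *Cnot3* did not pass on library totals either (1.09, adjusted p = 0.15). *Trub1*, *Dkc1* and *Hnrnpa2b1* passed on both scales. Those below 0 ran from *Nsun3* (-2.56 ± 0.71), *Mettl1* (-2.22 ± 0.50), *Alkbh3* (-2.09 ± 0.38) and *Rbm15* (-2.07 ± 0.67) to *Cnot1* (-1.05 ± 0.23). Between these lay *Nxf1*, *Igf2bp3*, *Prrc2a*, *Mettl6*, *Rbm46*, *Cnot7*, *Cnot9* and *Mettl4*.

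The genes whose course over the 17 libraries was most like that of each member were found by the root mean square difference of centred log2 values among 8665 genes whose mean was 100 reads or more. For *Ythdf1* they were *Syncrip* (0.118) and *Tmem165* (0.125), beside a standard deviation of 0.323 for *Ythdf1* itself. For *Ythdc1* they were *Zcchc10* (0.123) and *Ube2d3* (0.142), for *Mettl14* *Ddx17* (0.124) and *Rbm8a* (0.151), and for *Ythdf2* *Clasp2* (0.165) and *Ube2q2* (0.184). *Alkbh5* was closest to *Ncoa3* (0.212) and to *Rbm15* (0.229), itself a subunit of the methyltransferase complex, beside its own standard deviation of 0.777, the largest of the members. *Wtap* was closest to *Birc6* (0.228) and *Arglu1* (0.252), *Mettl3* to *D19Bwg1357e* (0.207) and *Ngdn* (0.218), *Fto* to *Atp6v1a* (0.181) and *4921524J17Rik* (0.186), and *Ythdf3* to *Tmx4* (0.196) and *Nubpl* (0.197). No member was among the closest genes of another.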

How the data were processed

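Polyadenylated RNA of 17 sorted libraries was copied by Smart-seq2 with ERCC spike-in and sequenced. The submitters' processing notes name TopHat2 2.1.1, HTSeq 0.11.2, Cufflinks 2.2.1, DESeq2 and the builds mm9 and mm10, and the study's methods give mm10. Reads that mapped once were counted per gene by the authors, who deposited a calibrated signal: the counts multiplied, library by library, by 1 factor from spike-in and cell input. Of all values, 100% were whole multiples of 1 read (tolerance 0.001), so the reads were recovered. There were 0 further columns per sample. Levels are in RPM and, per kilobase of the longest GENCODE transcript, in RPKM.

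Size factors (median of ratios over the libraries fitted) rescaled the values. Genes averaging 10 or more recovered reads entered limma 3.58.1 (R 4.3.3) as log2(rescaled value + 10), with a trend of variance on mean, and p-values were adjusted by Benjamini-Hochberg over all genes. Fold changes are therefore on the log2(value + 10) scale. SKO was compared with WT within each stage. The WT stages and the interaction terms were fitted on all 17 libraries. Alternatives were the ERCC scale, TMM and library totals (the last chosen after the data were seen), pseudocounts of 1 and 50, other filters, edgeR 4.0.16 and DESeq2 1.42.0 on the recovered reads, a replicate block, other sets of libraries in the fit, and each replicate left out. The tests were also run on simulated data with few changed genes and the same dispersion for every gene. That setting is simpler than these data and does not bear on the choice of scale.

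The members and gene lists were chosen with earlier results of these data known. Named are all members in every comparison, list genes called past 2-fold in at least 1 of 7 comparisons, the 2 genes most like each member, and *Nat10*. *Cpsf6*, called in none of the 7, was named after its values were seen. *Virma*, *Meioc*, *Cnot9* and *Cnot11* are listed under older symbols. Every pair of replicates differed by more than sampling noise (chi-square divided by its degrees of freedom, 6.30 to 67.1). Isoforms, m6A and ac4C data were not analysed here.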

Additional observations from a re-analysis of the deposited data

Results flagged for a closer look

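The genotype difference of *Ythdf1* was not the same in PreL and LZ. The interaction term over all 17 libraries was 1.26 ± 0.19 (limma, adjusted p = 4.38e-05), with a log2 fold change of SKO against WT of -0.17 in PreL and 1.06 in LZ. In LZ all 3 SKO libraries lay above both WT libraries, while in PreL the groups overlapped. The LZ difference and the interaction term share the WT LZ libraries. The term was 0.39 on the ERCC scale (adjusted p = 0.201) and 0.79 on library totals (adjusted p = 0.00509). The same pair of stages differed in late spermatocyte markers, at 338 to 1162 RPM (reads scaled to a common library total) in WT PreL against 61.1 to 82.2 in SKO PreL, and at 3701 to 6513 in WT LZ against 112 to 125 in SKO LZ, and their part in the result was not tested.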

How the results depend on the processing

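Of 1152 values set against alternatives, 1019 kept their direction and their side of the threshold, and 74 changed sign. Of those that kept their direction, 45 passed newly and 14 no longer passed. Values that changed sign could pass newly as well and are not in the 45. In PreL on the ERCC scale this held for *Mettl14* (0.51, limma adjusted p = 0.0364) and *Ythdf1* (0.55, adjusted p = 0.0293). The causes were not tested. Values are log2 fold changes unless they are counts of members.

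On the ERCC scale the signs changed in SPG for *Mettl14* (-0.25), *Alkbh5* (-0.14), *Ythdc1* (-0.26), *Ythdf1* (-0.18), *Ythdf2* (-0.01) and *Ythdf3* (-0.03), in PreL for *Mettl14* (0.51), *Fto* (0.47) and *Ythdf1* (0.55), and in LZ for *Wtap* (-0.07). In WT LZ against PreL they changed for *Mettl3* (1.44), *Mettl14* (0.95), *Wtap* (1.54), *Alkbh5* (1.59), *Ythdc1* (1.67), *Ythdf1* (0.87) and *Ythdf3* (1.64). In the interaction terms they changed for *Mettl3* (0.81), *Mettl14* (0.76), *Fto* (0.36) and *Ythdf1* (0.73) from SPG to PreL, and for *Mettl14* (-0.23), *Ythdc1* (-0.33) and *Ythdf3* (-0.73) from PreL to LZ. Members that passed on that scale numbered 8 higher in PreL, 0 lower and 9 higher in WT LZ against PreL, 7 higher in the first interaction, and 6 lower and 0 higher in the second. On library totals, *Wtap* in LZ (-0.32) and *Ythdf3* in the second interaction (-0.32) changed sign, with 4 members lower and 1 higher in LZ and 4 lower in the interaction.

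With the study's 2-fold threshold added, 0 members were lower and 1 was higher in LZ, and 0 were lower in WT LZ against PreL. In the second interaction 2 members passed as higher with TMM, a pseudocount of 50 or a mean of at least 50 reads, and 3 with edgeR. In WT LZ against PreL, *Ythdf2* changed sign with TMM (-0.07), edgeR (-0.17) and other libraries in the fit (-0.10), and *Ythdc1* with DESeq2 (0.01). *Fto* changed sign in the second interaction with edgeR (0.01).

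Whether replicate numbers pair the libraries was not settled, since few same-numbered libraries were at hand. Deviations of same-numbered WT and SKO libraries correlated at 0.074 and -0.001 in SPG, -0.053 and 0.11 in PreL, and 0.099 and 0.086 in LZ. Between stages the range over same-numbered libraries was -0.187 to 0.422, with the highest values for SKO PreL and WT LZ numbers 2 (0.379) and 3 (0.422). These are not independent, since the deviations of the 2 WT LZ libraries mirror each other. With the replicate block, 3 members passed as higher in SPG (*Wtap*, *Alkbh5* and *Ythdf2*), 1 in PreL (*Ythdf3*) and 2 in the second interaction. In SPG the numbers were 1, 2 and 3 in WT and 1, 3 and 4 in SKO. The block there thus rests on numbers 1 and 3 only. The block changed the sign of *Ythdc1* in SPG (-0.01), *Wtap* in LZ (-0.02), and *Ythdc1* (0.01), *Ythdf2* (-0.03) and *Ythdf3* (0.01) in WT LZ against PreL.

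With each replicate left out in turn, members that passed numbered 0 to 1 higher in PreL, 1 to 2 lower and 1 to 3 higher in LZ, 1 to 2 lower in WT LZ against PreL, and 0 to 1 lower and 1 to 3 higher in the second interaction. Signs changed within these ranges: in SPG *Mettl14* (-0.10 to 0.16), *Alkbh5* (-0.14 to 0.36) and *Ythdc1* (-0.04 to 0.10), in PreL *Mettl3* (-0.03 to 0.16) and *Alkbh5* (-0.06 to 0.91), and in LZ *Wtap* (-0.10 to 0.18). In WT PreL against SPG they were *Fto* (-0.06 to 0.21), *Ythdf2* (-0.12 to 0.33) and *Ythdf3* (-0.41 to 0.06). In WT LZ against PreL they were *Mettl3* (-0.46 to 0.03), *Wtap* (-0.58 to 0.10), *Alkbh5* (-0.69 to 0.27), *Fto* (-0.10 to 0.53), *Ythdc1* (-0.33 to 0.30), *Ythdf2* (-0.18 to 0.26) and *Ythdf3* (-0.33 to 0.24). In the interactions they were *Wtap* (-0.02 to 0.71), *Alkbh5* (-0.20 to 0.77) and *Ythdf2* (-0.17 to 0.27) from SPG to PreL, and *Fto* (-0.44 to 0.19) and *Ythdf3* (-0.15 to 0.42) from PreL to LZ. Where 1 WT LZ library was left out, the other was assumed to vary like the other groups.

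*Mettl3* had 31 to 94 reads in SKO LZ, WT LZ had 2 libraries, and SKO LZ was sequenced less deeply than the other groups. The genotypes also differed in spermatid and other markers, in SPG and PreL as well as in LZ. Late spermatocyte markers differed in PreL and LZ. In SPG 4 of 9 of them lay below every WT library. Their sums overlapped there, at 25.4 to 147.6 RPM in SKO against 147.1 to 222.4 in WT.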
